A study of Mus musculus with 30 samples.

Results

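The comparison described here is the difference between a pair of changes: how far female mice labelled Susceptible differed from those labelled Resilient in D1 neurons of the nucleus accumbens, minus the same change in D2 neurons. It was computed for every gene with enough counts, 19368 of the 55335 in the table, from the 20 of 30 libraries that belong to the 4 groups concerned. Ribosome-bound RNA was collected from D1-Cre-RT mice (called D1) and A2A-Cre-RT mice (called D2), in which a Cre driver switches on an HA-tagged ribosomal protein (RiboTag, RT) in 1 neuron class (for D2, cells in which the A2A driver is active), so that polyribosomes of that class can be pulled down with an antibody against the tag. Mice of both lines went through chronic witness defeat stress, in which an animal watches another being defeated, and were labelled Susceptible or Resilient from a social interaction test. The groups were thus D1 Resilient, D1 Susceptible, D2 Resilient and D2 Susceptible, with 5 libraries each, and every mouse in them carried RiboTag and was stressed. Each library pooled 4 mice with similar interaction scores, so the spread between libraries is a spread between pools, and the punches were taken 24 h after the test. Control libraries of both lines entered the filter on counts, the scaling and the estimate of spread, and were not compared.

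Medium spiny neurons make up most of the accumbens and fall into 2 main classes. D1 neurons carry the dopamine receptor Drd1, which raises cyclic AMP, and make the peptides dynorphin and substance P. D2 neurons carry Drd2, which lowers cyclic AMP, together with the adenosine receptor Adora2a and the peptide enkephalin. In rodent studies of chronic stress the classes have often been found to respond in different ways, which is the question the contrast addresses.

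The libraries carried their class. Pdyn, which encodes dynorphin, was higher in all 10 D1 libraries (456 to 729.7 CPM, counts per 1000000 counts of a library after scaling) than in all 10 D2 libraries (30.9 to 434 CPM), and Drd2, Adora2a and Penk were lower in all 10 D1 libraries than in all 10 D2 libraries. Drd1 and Tac1 overlapped between the classes only through D2 Resilient replicate 5, where Drd1 was 414 CPM against 56.4 to 95.2 CPM in the other D2 Resilient libraries and Adora2a 491 CPM against 1030 to 1197 CPM. In ribosome pulldowns from tissue, fewer cells of a type and less RNA per cell cannot be told apart. Gene counts were 28996168 to 65834869 per library over these 20. In D1 Susceptible replicate 1, the library with the fewest, the feature Gm42418 took 54.9% of gene counts, against 0.188% to 5.46% in the other 19. D2 Susceptible replicates 1 and 2 had counts for 15822 and 16525 genes, against 19440 to 22064 in the other 18, and summed epidermal markers (Krt1, Krt10 and 5 others) of 387 and 594 CPM against 31.1 to 58.1 CPM. Reads of the Y-linked gene Ddx3y, which female mice lack, stood at 5.73 and 1.01 CPM in this pair and at 0 to 0.227 CPM elsewhere. The main results below are therefore given with all 30 libraries and again from the 27 left after D1 Susceptible replicate 1 and D2 Susceptible replicates 1 and 2 were removed, called the 27-library fit.

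No gene passed the test. In edgeR's quasi-likelihood test 0 of 19368 genes (0.0%) had a p under 0.05 for the D1 minus D2 difference once adjusted over all genes by Benjamini-Hochberg, and the smallest adjusted p was 0.192. At an unadjusted p under 0.05 there were 2404 genes (12.4%), of which 1561 (8.06%) had a negative difference, meaning a change in D1 neurons below that in D2 neurons, and 843 (4.35%) a positive one. The 27-library fit also called 0 genes (0.0%) of 20396, with a smallest adjusted p of 0.0669, and left 960 (4.71%) at an unadjusted p under 0.05, of which 448 (2.2%) were negative and 512 (2.51%) positive. The 3 libraries thus moved the count by more than 1.5 times and turned the split from mostly negative to nearly even. Both fits shared 534 of these genes, 533 with the same sign, which is 22.2% of those found with all libraries and 63.9% of those from the 27-library fit that could be compared. limma-voom called 0 genes with and without the 3 libraries, and DESeq2 called 45 and 7.

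Among the 2404 genes the D2 change was the larger of the pair in 82.6%, 74.8% had an unadjusted p under 0.05 in D2 neurons, and 12.9% had one in D1 neurons. Over all 19368 genes, which were not selected by the difference, the same shares were 68.6%, 19.1% and 3.49%. In the 27-library fit the shares of the 960 genes were 61.4%, 45.6% and 30.8%, beside 55.4%, 5.8% and 3.75% over all 20396. Over all genes the D1 and D2 changes, which share no library, had a Pearson r of 0.0098 across 19368 genes and -0.019 across 20396 genes in the 27-library fit. These are correlations across genes, which are not independent replicates, and each axis holds the noise of 10 libraries. The median standard error of the difference was 0.33 on the log2 scale, where 1 is a 2-fold change, close to the median absolute difference of 0.32. Without the 3 libraries those values were 0.30 and 0.21.

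**Figure D1:**
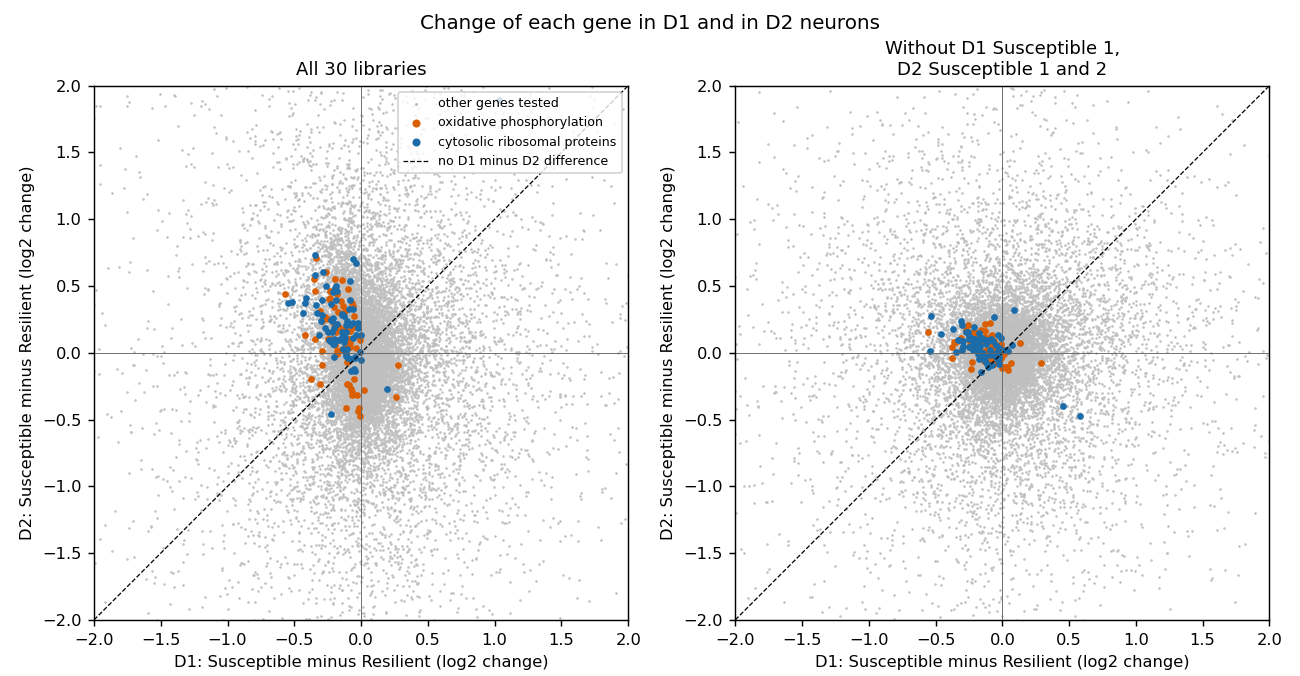
Log2 change from Resilient to Susceptible in D1 neurons (horizontal) and in D2 neurons (vertical), 1 point a gene, with all 30 libraries (left) and in the 27-library fit (right). Genes on the dashed line have no D1 minus D2 difference, and ribosomal protein and oxidative phosphorylation genes lie mostly above it in both panels, closer to it on the right. The axes end at 2 and leave 1075 genes outside on the left and 736 on the right.

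The 10 genes with the smallest p among those with a negative difference, all without a call, are described first. Lrrc4 (ENSMUSG00000049939, chr6:28661831-28831747, GRCm38), an adhesion molecule of excitatory synapses, stood at 98.6, 101, 100.4, 97.8 and 107 CPM in D1 Resilient libraries 1 to 5 and at 79.8, 84.8, 87.5, 86.8 and 81.9 CPM in D1 Susceptible. In D2 neurons it was 93.9, 90.7, 107, 87.8 and 85.2 CPM in Resilient and 121, 142, 93.8, 124 and 111 CPM in Susceptible. All D1 Susceptible libraries lay below all D1 Resilient libraries, whereas the D2 groups overlapped through D2 Susceptible replicate 3. The difference was -0.61 log2 (SE 0.122, edgeR adjusted p = 0.192), made of -0.26 in D1 and 0.35 in D2, and it was -0.48 in the 27-library fit (adjusted p = 0.723). DESeq2 gave -0.62 with an adjusted p of 0.00713.

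Nrgn (ENSMUSG00000053310, chr9:37544492-37552904) encodes neurogranin, a postsynaptic protein that binds calmodulin. Its levels were 802, 669, 716, 849.5 and 971 CPM in D1 Resilient and 612, 687, 697, 935 and 692 CPM in D1 Susceptible, 2 groups that overlapped. They were 999, 899, 944, 1186 and 892 CPM in D2 Resilient and 1709, 1845, 1413, 1582 and 1268 CPM in D2 Susceptible, so that every D2 Susceptible library was above every D2 Resilient one, replicates 3, 4 and 5 included. The difference was -0.81 log2 (SE 0.171, edgeR adjusted p = 0.192) and -0.61 in the 27-library fit (adjusted p = 0.993). The change within D2 neurons, 0.67 log2, passed its own test (edgeR adjusted p = 0.0252), and that within D1 neurons was -0.15 (adjusted p = 1.0).

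Nolc1 (ENSMUSG00000015176, chr19:46075863-46085530), a nucleolar phosphoprotein, was 108 ± 2.63 CPM in Resilient and 97.7 ± 4.58 CPM in Susceptible libraries of D1, and 98.8 ± 3.98 CPM in Resilient libraries of D2 (SD, n = 5). D2 Susceptible replicates 1 and 2 stood at 145 and 141 CPM and the other 3 at 109 to 112 CPM, still above the highest D2 Resilient library at 103 CPM. Its difference was -0.46 log2 (SE 0.104, edgeR adjusted p = 0.192) and -0.28 in the 27-library fit. Pdzd4 (ENSMUSG00000002006, chrX:73793359-73824969) was separated on both sides. Its D1 Susceptible libraries (186.8 to 204.6 CPM) were all below D1 Resilient (204.7 to 216.9 CPM), with neighbours nearly touching, and its D2 Susceptible libraries (212 to 291 CPM) all above D2 Resilient (167 to 209 CPM). The difference was -0.46 (SE 0.112, edgeR adjusted p = 0.21) and -0.37 in the 27-library fit. Of 19368 genes 3 (0.0155%) had this pattern, Pdzd4, the mitochondrial ribosomal gene Mrpl43 and the actin gene Actb, and none had the opposite one. Mrpl43 (-0.54, and -0.30 in the 27-library fit) and Actb (-0.26 and -0.23) were named for that pattern, after their values were seen. Without the 3 libraries 6 of 20396 genes (0.0294%) were below in D1 and above in D2, and 1 (0.0049%), the protease inhibitor gene Slpi, the reverse.

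Over all genes, D1 Susceptible lay wholly above D1 Resilient in 73 (0.377%) and wholly below in 144 (0.743%), and D2 Susceptible wholly above D2 Resilient in 120 (0.62%) and wholly below in 171 (0.883%). These shares in the 27-library fit were 0.642%, 1.01%, 1.91% and 1.77%, with smaller groups. Both classes lay above in 1 gene (0.00516%), or 3 (0.0147%) in the 27-library fit. Arhgef15, a guanine nucleotide exchange factor, had a difference of -0.51 log2 (-0.38 in the 27-library fit), with 32.7 ± 2.74 CPM in D1 Susceptible and 48.7 ± 5.38 in D2 Susceptible against 34.9 ± 3.26 and 36.5 ± 2.17 in the Resilient groups (SD, n = 5). Dlx6, a homeobox factor of GABAergic neurons, had a difference of -0.86 (-0.55), and Pin4, a prolyl isomerase, one of -0.91 (-0.66). Pin4 was lower in all 5 D1 Susceptible libraries (25.6 to 33.7 CPM) than in any D1 Resilient library (37.3 to 53.1 CPM). Jund completed the 10 negative genes with -6.49 log2, but its counts rested on D1 Resilient replicate 2 at 152 CPM and D2 Susceptible replicate 1 at 135 CPM, with 2.48 to 12.7 CPM in the other 18 libraries. Without D2 Susceptible replicate 1 alone the difference of Jund was -3.74, and in the 27-library fit it was -3.36. The remaining 2 of the 10 were subunits of ATP synthase, described below with their complex.

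**Figure D2:**
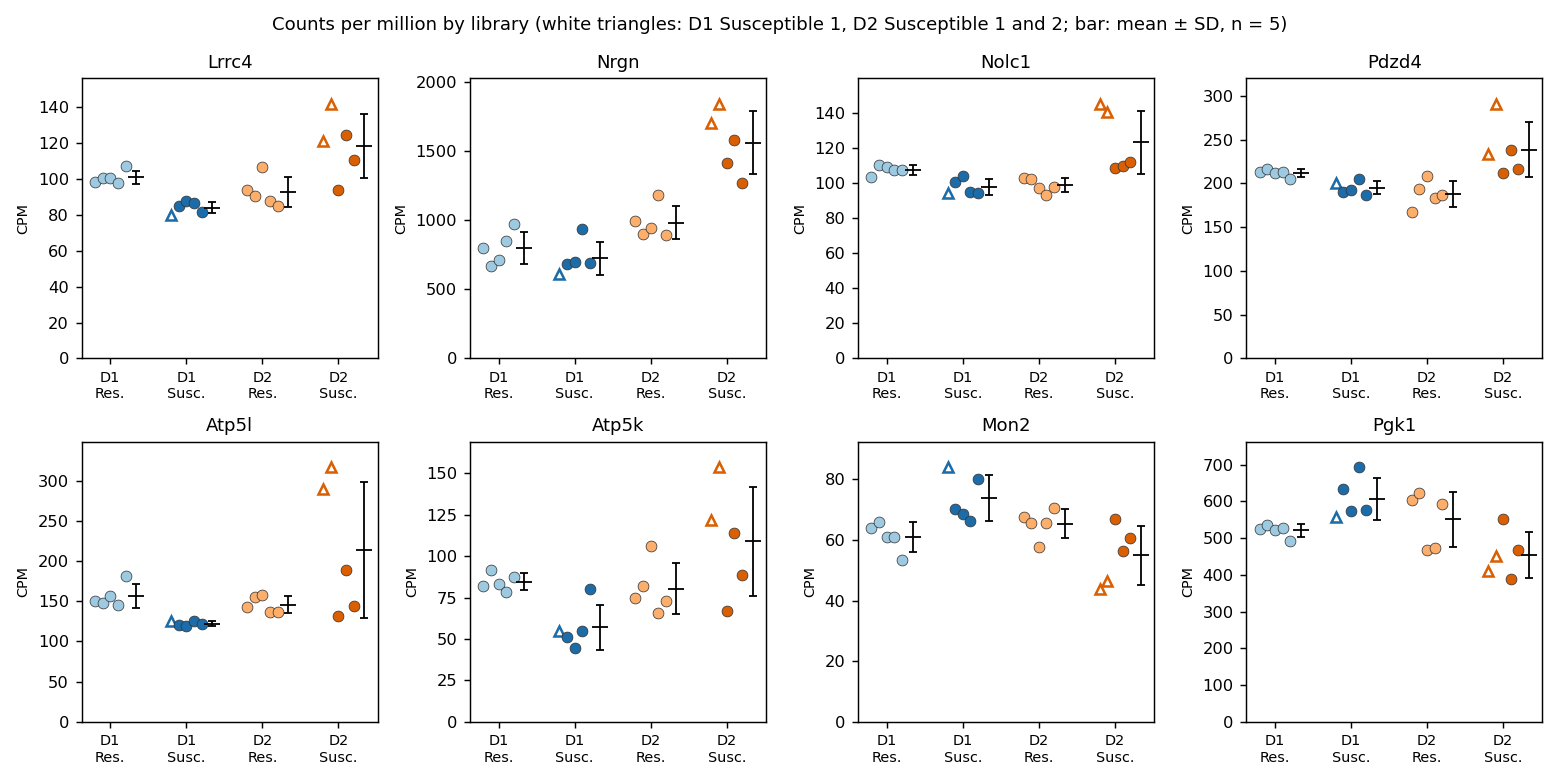
CPM of 8 of the genes with the smallest p, by library and group. Each point is 1 library, white triangles are D1 Susceptible replicate 1 and D2 Susceptible replicates 1 and 2, and bars are the mean ± SD of 5 libraries. For Nolc1, Atp5l and Mon2 the D2 triangles lie apart from the other D2 Susceptible libraries, and for Nrgn all 5 D2 Susceptible libraries lie above D2 Resilient.

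Genes of oxidative phosphorylation, the respiratory complexes and ATP synthase of the mitochondrial inner membrane, had mostly negative differences. Of 74 tested, 59 were negative, 35 reached an unadjusted p under 0.05 in that direction and 1 in the other, against 8.06% and 4.35% of all genes. None passed adjustment. Their median difference was -0.25 log2, made of -0.14 in D1 and 0.10 in D2, where all genes tested had medians of 0.046, -0.0066 and -0.034. In the 27-library fit 18 of 74 were negative at that p and 0 positive, against 2.2% and 2.51% of all genes, with a median of -0.15, of which -0.10 was in D1 and 0.028 in D2. Leaving out D2 Resilient replicate 5 as well gave 17 and a median of -0.13.

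Both ATP synthase subunits among the leading genes had lower means in D1 Susceptible than in D1 Resilient, short of a call. Atp5l (ENSMUSG00000038717, chr9:44912557-44920742) was 150.1, 148, 156, 145 and 182 CPM in D1 Resilient and 126, 120.3, 119, 125 and 121 CPM in D1 Susceptible, with no overlap. In D2 neurons it was 143, 156, 158, 137 and 137 CPM in Resilient and 289, 317, 132, 189 and 144 CPM in Susceptible, so that D2 Susceptible replicates 1 and 2 stood highest and replicates 3 and 5 within or near the D2 Resilient range. The difference was -0.91 log2 (SE 0.212, edgeR adjusted p = 0.192) and -0.44 in the 27-library fit, where the D2 change was 0.078 instead of 0.55 and the D1 change -0.37 instead of -0.35. Atp5k, another membrane subunit, was 84.6 ± 5.11 CPM in Resilient and 57.0 ± 13.6 CPM in Susceptible libraries of D1, and 80.2 ± 15.4 CPM and 109 ± 33.1 CPM in those of D2, in the same order (SD, n = 5). Its difference was -1.01 (SE 0.232, edgeR adjusted p = 0.192) and -0.71 in the 27-library fit. The next of the list by p were Cox7c of complex IV (-0.81), Ndufa4 (-0.62), Atp5g2 (-0.51) and Ndufb3 of complex I (-0.53), which were -0.42, -0.33, -0.46 and -0.33 in the 27-library fit.

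Cytosolic ribosomal protein genes, whose products build the ribosome itself, had the same direction. Of 76 tested, 70 were negative and 41 reached an unadjusted p under 0.05 in that direction, with 0 in the other and 0 after adjustment. Over all genes 8862 of 19368 were negative, and 8.06% were negative and 4.35% positive at that p. The median difference was -0.38 log2, made of -0.16 in D1 and 0.21 in D2. The 27-library fit left 18 of 76 negative at that p, beside 2.2% of all genes. Its median was -0.20, in which the D1 part was again -0.16 and the D2 part 0.056. Leaving out D2 Resilient replicate 5 as well left 8 at that p. Rps29 was 73.8 ± 4.19 CPM in Resilient and 51.7 ± 12.2 CPM in Susceptible libraries of D1, and 73.7 ± 18.2 CPM and 96.0 ± 22.1 CPM in those of D2, in the same order (SD, n = 5), with all D1 Susceptible libraries below all D1 Resilient ones. Its difference was -0.90 (SE 0.229, edgeR adjusted p = 0.213) and -0.81 in the 27-library fit. Rpl38 had a difference of -0.79 (-0.55), Rps28 one of -0.73 (-0.60) and Rps21 one of -0.92 (-0.51). Ribosomal protein genes have many near-identical processed copies, so single members are uncertain where reads could be split between copies. The immunoprecipitation also selects RNA by its ribosomes, so a level here is ribosome-bound RNA and not total RNA.

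Summed over the list, ribosomal protein genes were 9692 to 12035 CPM in Resilient and 9051 to 10571 CPM in Susceptible libraries of D1, and 10307 to 11435 CPM and 10026 to 14618 CPM in those of D2, in the same order. The highest D2 Susceptible libraries were replicates 1, 2 and 4, at 14001, 14618 and 12535 CPM, and the lowest was replicate 3. The highest D1 Resilient library was replicate 5, at 12035 CPM, and without it alone the median difference was -0.30 with 33 genes negative at an unadjusted p under 0.05. The proteasome, another large complex, with fewer genes and given for comparison, had 3 negative and 1 positive of 33 at that p. The shares of all genes were 8.06% and 4.35%. The proteasome median was 0.054. In the 27-library fit it had 0 and 0 at that p, beside 2.2% and 2.51% of all genes, and a median of -0.0079.

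Genes with short transcripts stood apart in the difference, where the length of a gene is that of its longest annotated transcript. Among 14946 protein-coding genes split by length into 5 classes, the shortest class (median 1438 bases) had a median difference of -0.061 log2 and the other 4 had 0.052 to 0.079. In the shortest class 12.4% of genes were negative at an unadjusted p under 0.05. The share was 6.29%, 6.66%, 7.09% and 8.97% in the others, from shorter to longer. After ribosomal protein and oxidative phosphorylation genes were taken out of the shortest class its median was -0.043 and its share 10.7%. Without the 3 libraries the shortest class again stood apart, with a median of -0.041 against 0.013 to 0.038 and a share of 3.48% against 1.24% to 1.41%. By the same measure, ribosomal protein and oxidative phosphorylation genes had median lengths of 1076.5 and 1186 bases and the proteasome 1883 bases. The transcripts in use in these cells can be shorter. Whether length has a part in the values of these lists was not tested.

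**Figure D3:**
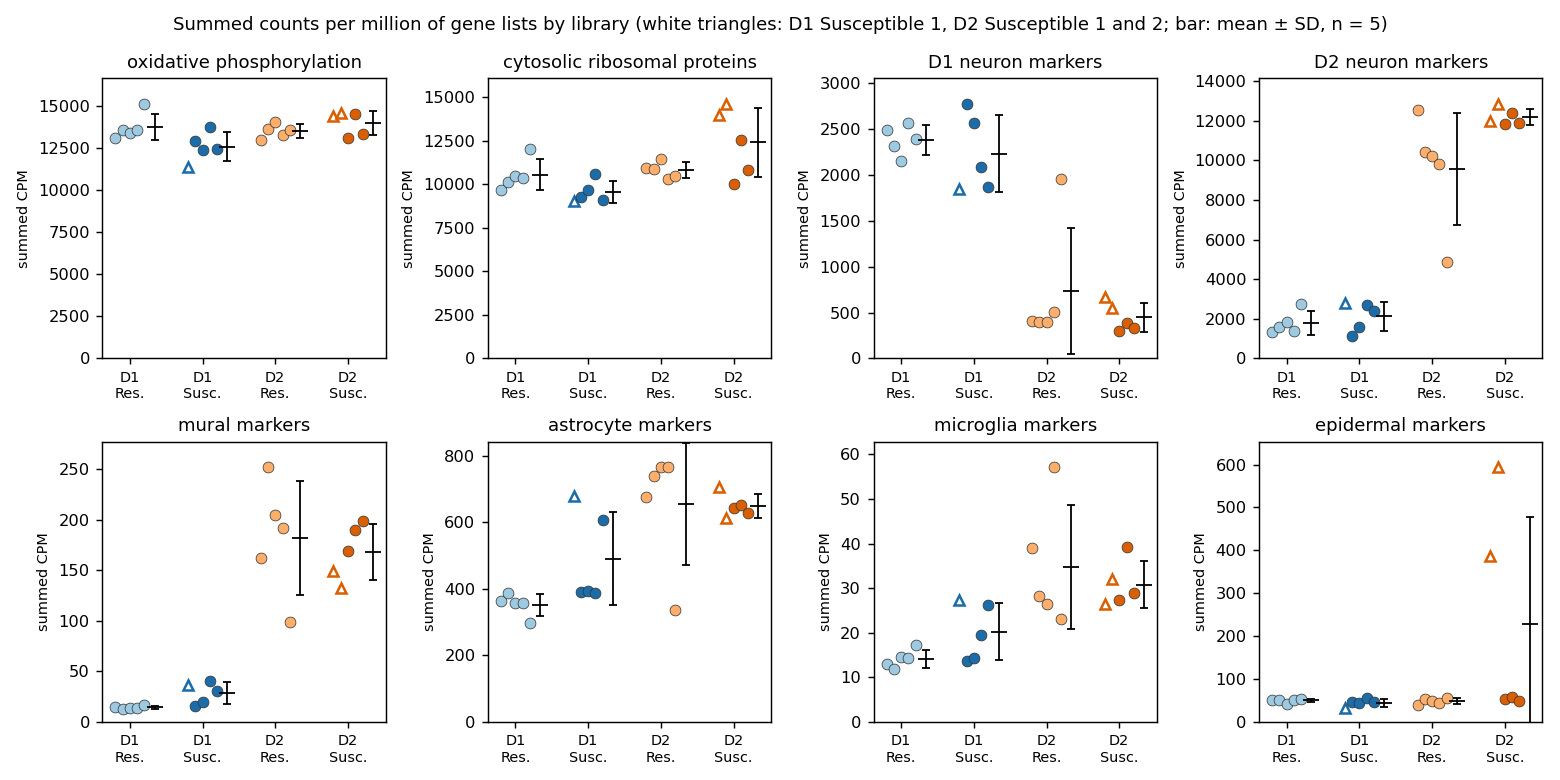
Summed CPM of 8 gene lists, by library and group. Each point is 1 library, white triangles are D1 Susceptible replicate 1 and D2 Susceptible replicates 1 and 2, and bars are the mean ± SD of 5 libraries. Ribosomal protein sums of D2 Susceptible range from 10026 to 14618 CPM, D2 Resilient replicate 5 stands apart in both neuron marker lists, and the epidermal sums of 387 and 594 CPM belong to D2 Susceptible replicates 1 and 2.

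Among the genes with a positive difference and the smallest p, Mon2 (ENSMUSG00000034602, chr10:122992060-123076505), a regulator of traffic between Golgi and endosomes, was 63.8, 66.1, 61.0, 61.0 and 53.2 CPM in D1 Resilient and 84.0, 70.3, 68.6, 66.4 and 80.0 CPM in D1 Susceptible. It was 67.5, 65.8, 57.7, 65.5 and 70.6 CPM in D2 Resilient and 43.9, 46.4, 66.9, 56.5 and 60.8 CPM in D2 Susceptible. The D1 groups did not overlap, the D2 groups did, and the 2 lowest D2 libraries were Susceptible replicates 1 and 2. The difference was 0.53 log2 (SE 0.132, edgeR adjusted p = 0.213) and 0.33 in the 27-library fit.

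Pgk1 (ENSMUSG00000062070, chrX:106187100-106203699), a glycolytic enzyme, held its value without the 3 libraries. It was 526, 537, 522, 527 and 492 CPM in D1 Resilient and 556, 634, 575, 693 and 576 CPM in D1 Susceptible, with no overlap. In D2 neurons it was 603, 622, 468, 473 and 592 CPM in Resilient and 411, 451, 551, 389.9 and 469 CPM in Susceptible, where the groups overlapped. The difference was 0.50 log2 (SE 0.135, edgeR adjusted p = 0.22) and 0.49 in the 27-library fit (SE 0.139, adjusted p = 0.993). Pcdh20, a protocadherin, was the named gene with the smallest adjusted p in the 27-library fit, 0.329, with a difference of 1.22 against 1.15 with all libraries. Its levels were low, at 6.19 ± 0.857 CPM in Resilient and 8.15 ± 1.41 CPM in Susceptible libraries of D1, and 6.62 ± 0.758 CPM and 3.90 ± 1.76 CPM in those of D2, in the same order (SD, n = 5). Ctps2, a CTP synthase, was 0.61 with all libraries and 0.79 in the 27-library fit (adjusted p = 0.536). D2 Resilient replicate 5, which both fits keep, had the highest Ctps2 level of its group at 13.75 CPM. Without that library alone the difference of Ctps2 was 0.50.

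Other genes of the 10 with positive differences were Nsun6, an RNA cytosine methyltransferase (1.04, and 0.74 in the 27-library fit), Coq8a, which takes part in coenzyme Q synthesis (0.85 and 0.64), Smcr8 (0.57 and 0.30) and Sez6l (0.69 and 0.49). Each had edgeR adjusted p-values of 0.22 to 0.235. In the last 3 of the 10, 1 library or a low level set much of the value. Atp6v1c1, a subunit of the vacuolar proton pump, had a difference of 2.55, with D2 Resilient replicate 4 at 54.2 CPM and 5.99 to 10.3 CPM in the other libraries of that group, 1.46 without that library and 2.17 in the 27-library fit. Lars2, the mitochondrial leucyl-tRNA synthetase, had 6.71, with 181829 CPM in D1 Susceptible replicate 1, the library dominated by Gm42418, and 3569 CPM in replicate 5, the next highest in Gm42418. Without D1 Susceptible replicate 1 it was 1.82, and 2.56 in the 27-library fit. Adgrl4, an adhesion receptor of endothelial cells, had 1.65, at 0.695 ± 0.296 CPM in D1 Resilient, 2.18 ± 1.57 in D1 Susceptible and 10.3 to 11.1 CPM on average in the D2 groups. D1 Susceptible replicate 1 was highest of its group for Adgrl4 at 4.87 CPM, and the difference was 1.23 without it and 1.09 in the 27-library fit.

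The Susceptible against Resilient test within D2 neurons called 10 genes in edgeR with all libraries (0.0516%) and 1 (0.0049%) in the 27-library fit, Chd9 (D2 change of 1.19, edgeR adjusted p = 0.0344). That count was not stable. It was 43 (0.292%) with the stricter filter on low counts, 0 with the 20 libraries alone, 976 in DESeq2 and 1 in voom. Leaving out 1 library moved it from 0, when the library was Susceptible replicate 1 or Resilient replicate 2 of D2, to 1964, when it was Susceptible replicate 3. The count was 1607 when Susceptible replicate 5 of D2 was dropped, 412 for replicate 4 of that group and 122 for Control replicate 4. Within D1 neurons edgeR called 0 genes in both fits (3.49% and 3.75% at an unadjusted p under 0.05), DESeq2 8 and voom 15 with all libraries, and edgeR 9 without D1 Susceptible replicate 3. These 10 genes share the D2 values with the difference, so they are described without counting as support for it. The 5 with negative differences were Nrgn, Hrk, Chd9, Kcnk2 and Arhgef15. Hrk, which encodes a BH3 protein that promotes apoptosis, was 81.8 ± 7.46 CPM in D2 Resilient and 124 ± 28.7 in D2 Susceptible, and 80.2 ± 5.77 against 84.6 ± 4.34 in D1 (SD, n = 5), a difference of -0.53 that was -0.26 in the 27-library fit. Chd9, a chromodomain helicase, was 49.5, 43.5, 38.2, 39.2 and 34.8 CPM in D2 Resilient and 132, 52.3, 86.3, 108 and 88.9 CPM in D2 Susceptible, without overlap. Its difference was -1.05 (SE 0.284, edgeR adjusted p = 0.22) and -0.96 in the 27-library fit. Kcnk2, the potassium channel TREK-1, had -0.67 and -0.37. The positive ones were Sez6l, Ttc39c (0.43 and 0.35), the granin Scg2 (0.47 and 0.36), Cpne7 (0.65 and 0.54) and Mustn1. Mustn1 was near the limit of detection, with 1 count over all D2 Susceptible libraries, 69 over D2 Resilient, 88 over D1 Susceptible and 112 over D1 Resilient.

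Counts in the lists of synaptic transmission genes are read beside 8.06% of all genes negative and 4.35% positive at an unadjusted p under 0.05. Among 22 vesicle release genes 3 were negative and 1 positive at that p, with Cplx2, a complexin that clamps and promotes fusion, at -0.87 (-0.41 in the 27-library fit) and the vesicle protein Vamp2 at -0.25 (-0.16). Cplx2 in D2 Susceptible was 5718 and 5004 CPM in replicates 1 and 2 and 2549 to 3134 CPM in the others. Of 27 genes of the postsynaptic scaffold and its calcium signalling 3 were negative, led by Nrgn, and 1 positive. Of 22 glutamate receptors 3 were positive, among them the metabotropic receptor Grm3 at 0.70 (0.31). Of 19 genes of GABA synthesis, transport and reception 4 were positive and 2 negative, with Gad2, which makes GABA, at 0.36 (0.16) and the receptor subunit Gabrb1 at -0.69 (-0.23). Of 27 potassium channel genes 3 were negative and 1 positive, with Kcna2 at -0.76 (-0.24). In the 27-library fit none of the 22 glutamate receptors reached that p, and 1 vesicle release gene, 2 postsynaptic genes, 2 GABA genes and 2 potassium channel genes did, where 4.71% of all genes reached it in either direction.

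Lists of peptide and activity genes are read beside 54.2% of all genes with a positive difference and 4.35% positive at an unadjusted p under 0.05, or 52.1% and 2.51% in the 27-library fit. Of 11 granins and peptide processing enzymes 8 were positive and 3 reached that p, namely Scg2, the amidating enzyme Pam (0.39, and 0.13 in the 27-library fit) and Scg3 (0.28 and 0.25). In the 27-library fit 8 were again positive but only Scg2 reached it, and the list's median was 0.095 instead of 0.28. Of 19 immediate early genes, which neurons induce on activity, 16 were positive in both fits, with a median of 0.22 log2 (0.18 in the 27-library fit), 2 positive and 1 negative at that p (1 and 1 in the 27-library fit). Fos was 11.2 ± 2.16 CPM in Resilient and 11.7 ± 2.89 CPM in Susceptible libraries of D1, and 12.1 ± 4.99 CPM and 6.14 ± 1.56 CPM in those of D2, in the same order (SD, n = 5), a difference of 1.02 (SE 0.378, edgeR adjusted p = 0.29) and 0.88 in the 27-library fit. The D2 Resilient range of Fos was wide, from 4.56 to 16.8 CPM, and overlapped D2 Susceptible (4.34 to 8.15 CPM). Arc, a regulator of synaptic strength, was 1.02 and 0.68. Of 11 opioid and endocannabinoid genes 1 was positive and 1 negative, the receptor Cnr1 at 0.58 (0.42) and the lipase Mgll at -0.67 (-0.27). Neither reached that p in the 27-library fit, where the opioid receptor Oprm1 did (1.62 with an SE of 1.09, and 1.60 there). Oprm1 levels were low, with means of 0.88 CPM in D1 Resilient and 3.57 CPM in D1 Susceptible. In D2 Resilient and D2 Susceptible they were 0.69 and 0.90 CPM. Among 12 genes of neurotrophin signalling 3 were positive at that p, the BDNF receptor Ntrk2 at 0.27 (0.17), Shc3 at 1.36 (0.54) and Sort1 at 0.37 (0.12). None of these 3 reached it in the 27-library fit.

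Lists of chromatin and stress hormone genes differed between the fits. Of 32 chromatin remodellers and modifiers 8 were negative and 2 positive at an unadjusted p under 0.05 with all libraries (8.06% and 4.35% of all genes), among them Chd9, Arid1a (-0.72) and Chd7 (-1.30). In the 27-library fit 1 was negative and 2 positive, with Arid1a at -0.21 and Chd7 at -0.29. Their summed level was 5481 and 5234 CPM in D2 Susceptible replicates 1 and 2 and 3538 to 3904 CPM in the other 3, and it was 4475 CPM in D1 Susceptible replicate 1 against 3527 to 3830 CPM in the other 4 of that group. Of 12 glucocorticoid receptor and target genes 2 were negative, Klf9 at -0.76 (-0.34) and Tsc22d3 at -0.45 (-0.037), and 0 in the 27-library fit. Of 12 genes of mitochondrial dynamics and biogenesis 4 were negative at that p, among them the coactivator Ppargc1b at -1.47 (-0.67) and the kinase Pink1 at -0.28 (-0.23), and of these only Pink1 reached it in the 27-library fit. Cyclic AMP and DARPP-32 signalling had 1 positive and 1 negative gene of 21 at that p (median 0.083). Wnt, beta-catenin and microRNA processing had 0 positive and 1 negative of 17 (median 0.067). Heat shock proteins had 0 positive and 2 negative of 13 (median 0.049), Hsp90aa1 at -0.92 (-0.056) and Hspe1 at -0.34 (-0.094). None of these 3 lists had a gene at that p in the 27-library fit, where their medians were 0.015, 0.047 and 0.14.

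**Figure D4:**
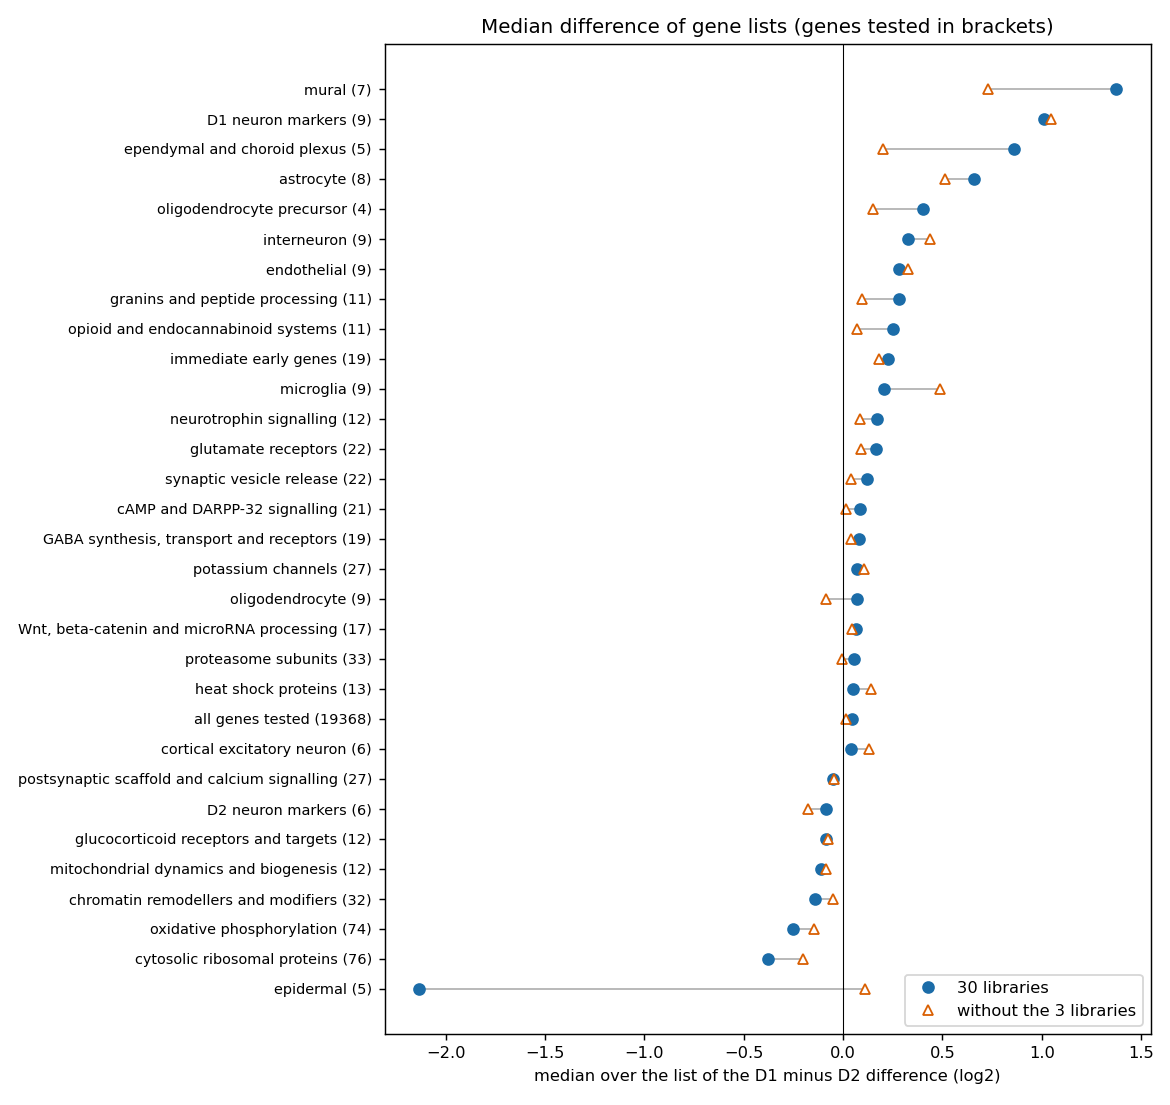
Median D1 minus D2 difference (log2) of the gene lists, with all 30 libraries (filled circles) and in the 27-library fit (white triangles), with the number of genes tested in brackets. Ribosomal protein and oxidative phosphorylation genes stay negative at -0.20 and -0.15, and the epidermal list goes from -2.13 to 0.11.

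Markers of the neuron classes themselves moved with 1 library. The 9 D1 markers had a median difference of 1.01 log2, of which -1.04 was the change in D2 neurons and -0.055 that in D1 neurons. Of the 9, 8 were positive and 1 was positive at an unadjusted p under 0.05, beside 54.2% and 4.35% of all genes. Pdyn led with 1.84 (SE 0.782, edgeR adjusted p = 0.338). Without D2 Resilient replicate 5, whose D1 markers summed to 1961 CPM against 391 to 511 CPM in the other D2 Resilient libraries, the median was 0.26 and Pdyn was 0.51. The 27-library fit keeps that library and gave 1.05. Some named genes outside these markers also had their lowest leave-one-out difference without D2 Resilient replicate 5. These were Ctps2 (0.50), Sez6l (0.56), Scg2 (0.38), Ttc39c (0.37) and Cnr1 (0.41). The 6 D2 markers analysed had a median of -0.086 and 1 negative gene at an unadjusted p under 0.05, Plxdc1 (-0.48), beside 8.06% of all genes. In the 27-library fit the median was -0.18 with 0 of 6 positive, beside 52.1% of all genes, and Plxdc1 at -0.58. Leaving out 1 of the 30 libraries at a time gave medians of -0.21 to 0.10. A further 1 of the 7 D2 markers was not analysed here.

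Mural, astrocyte, microglial and endothelial markers had positive medians in both fits, with 4.35% of all genes positive at an unadjusted p under 0.05 (2.51% in the 27-library fit). All 7 mural markers, of pericytes and vascular smooth muscle, were positive, 5 of them at that p, with a median of 1.37 log2 that was 0.73 with 3 such genes in the 27-library fit and 0.71 without D1 Susceptible replicate 1 alone. Their summed level was 12.9 to 16.6 CPM in Resilient and 15.4 to 39.8 CPM in Susceptible libraries of D1, and 98.4 to 252 CPM and 133 to 199 CPM in those of D2, in the same order. The pericyte gene Vtn was 1.77 CPM in D1 Resilient and 6.29 in D1 Susceptible on average, and 78.2 and 59.5 in the D2 groups, with a difference of 2.22 log2 (1.89). Of 8 astrocyte markers 1 was positive at that p, and 0 in the 27-library fit, with a median of 0.66 (0.51). Their sums were 298 to 387 CPM in Resilient and 386 to 678 CPM in Susceptible libraries of D1. They were 335 to 766 CPM and 613 to 708 CPM in those of D2, in the same order. In D1 Susceptible the sums were 678 and 606 CPM in replicates 1 and 5, and 386 to 393 CPM in replicates 2, 3 and 4. The 27-library fit keeps D1 Susceptible replicate 5. Of 9 microglial markers 3 were positive at that p with a median of 0.21 (0.49), and of 9 endothelial markers 2 with a median of 0.28 (0.33), and 0 of either list reached it in the 27-library fit. Leaving out 1 library at a time gave microglial medians from -0.10, without D2 Resilient replicate 4, to 0.56, without D2 Susceptible replicate 4, and endothelial ones from 0.12 to 0.46. Oligodendrocyte and precursor markers had medians of 0.068 (-0.084) and 0.40 (0.15), interneurons 0.33 (0.44), cortical excitatory neurons 0.040 (0.13), and ependyma and choroid plexus 0.86 (0.20). Without D2 Resilient replicate 5 alone, which the 27-library fit keeps, the interneuron median was 0.0685. That library had the highest interneuron sum of its group, at 227.6 CPM. The ependymal marker Tmem212 had no count in D2 Susceptible. Of the 7 epidermal markers Krt5 had none in D1 Resilient and both Krt5 and Krt14 none in D1 Susceptible and D2 Resilient. All 4 Y-linked genes had none in D1 Susceptible. The part of these cells in the gene differences above was not tested.

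Which genes were called depended on the libraries and the tool. Without D2 Susceptible replicate 3 alone, edgeR called 156 genes (0.789%), 136 negative and 20 positive, 13 of them among the 20 leading genes, and 13 oxidative phosphorylation and 12 ribosomal protein genes were called. In 141 of the 156 the mean of D2 Susceptible replicates 1 and 2 lay beyond the mean of replicates 4 and 5 in the direction called. Leaving out any other of the 30 libraries gave 0. The count at an unadjusted p under 0.05 ran from 1837 without D2 Susceptible replicate 1 to 3898 without replicate 3, and it was 1890 without replicate 2, 2840 without replicate 4 and 3610 without replicate 5. DESeq2 called 45 genes (0.269%) with all libraries, 33 negative and 12 positive, of which 22 had a mean of at least 4 CPM and 10 had more than 50% of their CPM in 1 library. Of the 20 leading genes 13 were among them. DESeq2 called 7 (0.0344%) without the 3 libraries, 4 of them shared with the 45, namely Gm6361, 2210418O10Rik, Pabpc1l2a-ps and Gm15501.

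**Figure D5:**
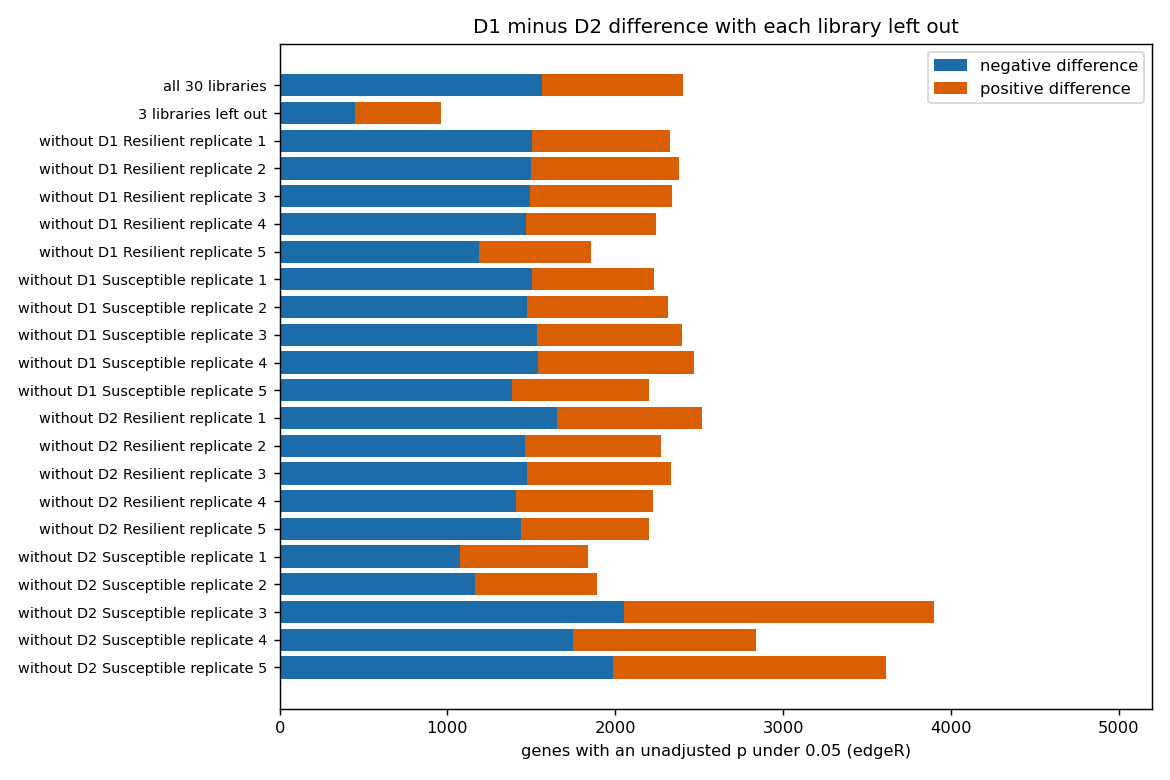
Number of genes with an unadjusted p under 0.05 for the D1 minus D2 difference (edgeR), with all 30 libraries, without the 3 libraries, and with each of the 20 libraries left out in turn, split by sign. The bars are longest without D2 Susceptible replicates 3 (3898) and 5 (3610), and shortest without all 3 libraries (960).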

How the data were processed

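The authors deposited 1 file of raw counts (whole reads per gene) for each of 30 libraries, and a deposited table of the whole series holds the same values. The submitters' processing notes name HISAT2 and HTSeq and the builds GRCm38 and mm10. Their versions, the annotation release and whether strand was used were not given in the sources used here, so antisense and overlapping genes are uncertain. Per the labels' protocols, polyribosomes were pulled down with an anti-HA antibody, samples with an RNA integrity number above 8 were used, and 10 ng of RNA entered SMART-Seq v4. Summary lines that name no gene (10.1% to 53.3% of reads) stayed out of library sizes and tests. Groups came from the sample titles, and the labels pair no libraries across groups. Each p-value comes from a test of a difference judged against the spread between pools. Of the 7 D2 markers, 1 was not analysed here, and some other genes and lists are not reported here. Symbols and coordinates are from GENCODE M21 on GRCm38.

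Genes passing filterByExpr (minimum count of 10, minimum total of 15) were TMM-scaled and tested with edgeR 4.0.16 (R 4.3.3) by the robust quasi-likelihood F test in 1 model of 6 groups and 30 libraries, with Benjamini-Hochberg adjustment across the whole table and a threshold of 0.05. The biological coefficient of variation was 41.4%. CPM are on TMM-scaled library sizes, and a count of 0 allows 3 counts per library, or 0.0430 to 0.304 CPM, for counting error only. The fit was also run on simulated counts with known fold changes in D1 Susceptible. That simulation held no outlying libraries, so it cannot show how the fit behaves with those described above. The alternatives were DESeq2 1.42.0, its size factors, limma 3.58.1 voom with quality weights, no filter, a stricter filter (1 CPM in 5 libraries), the 20 libraries alone, the replicate number as a block, each library left out, and the 3 libraries left out. DESeq2 and voom without the 3 libraries, and a fit that also left out D2 Resilient replicate 5, were chosen after seeing the data. Named genes were the 10 in each direction with the smallest p and a mean of at least 4 CPM, the 3 in each direction with the smallest p without the 3 libraries, genes called in D2, class genes, and the 2 members of each pathway list with the smallest p. Further list members and markers, and genes behind counts of 5 or fewer, were named after their values were seen. The members, lists and rules were chosen with earlier results of these data known. Tables were made with pandas 2.3.3 and figures with matplotlib 3.10.9.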

Additional observations from a re-analysis of the deposited data

Results flagged for a closer look

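In each of the 4 groups of 5 libraries, the levels of the named genes were checked for a single library far from the other 4 (Dixon's test at its 95% critical value of 0.71). Chance alone marks about 1 in 20 groups. All values are CPM.

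D2 Resilient replicate 5 stood apart in 7 of these genes, most of them class genes. There Drd1 was 414 (56.4 to 95.2 in the others of the group), Pdyn 434 (33.5 to 89.4) and Tac1 792 (209 to 237). Drd2 was 205 (415 to 498), Adora2a 491 (1030 to 1197), Sp9 31.9 (59.9 to 69.7) and Rpl22 54.5 (62.7 to 66.1). D2 Resilient replicate 1 was high for Ppp3ca at 8654 (5482 to 6068), Pde10a at 905 (658 to 722), Kcna2 at 316 (248 to 262) and Psma4 at 180.0 (154 to 158). In D2 Resilient replicate 4 Atp6v1c1 was 54.2 (5.99 to 10.3).

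In D2 Susceptible replicate 2, Sp9 was 100 (66.8 to 76.2), Rpl22 107 (61.0 to 73.6) and Ntrk2 248 (305 to 321). In replicate 1 Jund was 135 (2.71 to 8.22), and in replicate 3 Mustn1 was 0.0175, from 1 count, with 0 in the others.

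In D1 Susceptible replicate 1, Lars2 was 181829 (408 to 3569), Pde10a 1019 (619 to 725), Rpl22 42.8 (59.9 to 64.7) and Hspe1 66 (82.3 to 86.2). In replicate 4 Nrgn was 935 (612 to 697). In replicate 5 Dlx6 was 54.3 (72.5 to 78.4), Mgll 199 (242 to 258), Drosha 150.0 (131 to 134) and Ago1 89.0 (63.0 to 69.2).

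In D1 Resilient replicate 2 Jund was 152 (2.48 to 12.7), and in replicate 4 Arhgef15 was 40.6 (32.9 to 34.1). In replicate 5 Klf9 was 630.0 (480.0 to 517), Hspe1 120.0 (86.8 to 92.9) and Pin4 53.1 (37.3 to 41.2).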

How the results depend on the processing

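edgeR called 0 genes with DESeq2's size factors (2499 at an unadjusted p under 0.05), without a filter (3689), with the stricter filter (2114), with the 20 libraries alone (1766), without the 3 libraries (960) and without those and D2 Resilient replicate 5 (975), and voom called 0 (1352, and 1574 without the 3). DESeq2 called 45, and 7 without the 3 libraries. Leaving out 1 library at a time gave 0 to 156 calls, 156 only without D2 Susceptible replicate 3. With the replicate number as a block edgeR called 0 (2137). Deviations of same-numbered libraries correlated at -0.066 to 0.068. Differently numbered libraries were not compared, so whether same-numbered libraries share a batch was not tested.

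Of 2867 values for 70 named genes under up to 41 alternatives, 2809 kept their direction and side of the threshold, 34 passed it newly and 24, in 9 genes, changed sign. The cause was not tested. With voom without the 3 libraries Psma4 was 0.080, Dlgap1 0.042, Hsp90aa1 0.131, Rpl22 0.017, Tsc22d3 0.084 and Drd2 -0.465. With voom and all libraries Tsc22d3 was 0.017 and Drd2 -0.366. Without the 3 libraries Drd2 was -0.114 in edgeR and -0.105 in DESeq2. Without those and D2 Resilient replicate 5 Tsc22d3 was 0.022 and Adora2a 0.019. Leaving out 1 library at a time gave Penk -0.25 to 0.119, positive without D1 Resilient replicate 5, D1 Susceptible replicate 2 (0.042) or D2 Resilient replicate 5 (0.050). It gave Adora2a -0.20 to 0.136, positive without the same libraries or D1 Susceptible replicate 3. It gave Tac1 -0.44 to 0.37, negative without D2 Resilient replicate 5 or D2 Susceptible replicate 3. It gave Drd2 -0.048 to 0.25, negative without D1 Susceptible replicates 1 or 4 or D2 Resilient replicate 4. These class genes had standard errors of 0.33 to 0.46, and with 5 pools a group differences of that size were not resolved.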
